A study of Homo sapiens with 15 samples.

Results

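Mutant FOXL2 was set against wildtype FOXL2 in COV434 cells, on 6 of the 15 arrays of the series. The members are the 3 arrays titled as COV434 Mutant and the 3 titled as COV434 Wildtype, and the empty vector arrays and the KGN arrays were left out of the comparison. COV434 is an established human line whose tumour of origin was taken for a juvenile granulosa cell tumour and has since been regrouped by others with small cell carcinoma of the ovary. It carries wildtype FOXL2 and expresses almost none of it. For each array, 300000 cells at passage 9 were transfected with 1 µg of plasmid using a lipid reagent that was removed after 7 h, and RNA was harvested at 24 h. The wildtype group received pFOXL2wt, which expresses the human coding sequence. The mutant group received pFOXL2m, which was made from pFOXL2wt by site-directed mutagenesis and differs from it by the C-to-G change of adult granulosa cell tumours. That change replaces a cysteine of the forkhead domain by a tryptophan. Both groups therefore carried an overexpressed FOXL2, and the comparison asks what the single amino acid change altered, not what FOXL2 did to the cells. The 3 samples of a group were separate transfections made on the same occasion, so p-values leave out the variation between occasions. The platform was the Affymetrix U133 Plus 2 array, and the values are log2 signals made by RMA, a method that corrects for background, normalises between arrays and gives a single signal per probe set. A probe set is a group of short probes that reads a stretch of a transcript, usually near its 3′ end.

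FOXL2 is a forkhead transcription factor that granulosa cells, the hormone-producing somatic cells of the ovarian follicle, express throughout life and need for their identity. Its partners include SMAD proteins, which carry the signals of the TGF-β family from receptors at the cell surface to the genes. Activins and TGF-β act mostly through SMAD2 and SMAD3, and BMPs through SMAD1, SMAD5 and SMAD9. The ID genes are textbook targets of the BMP branch and encode small proteins that block transcription factors of the helix-loop-helix class. CDKN1A and CDKN1C encode p21 and p57, which hold back the cyclin-dependent kinases that drive the cell cycle.

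The quality measures of both groups overlapped. Their median log2 signals were 4.387 to 4.427, the 3′ control probe set of ACTB exceeded the 5′ one by 2.01 to 2.51 and that of GAPDH by 0.63 to 1.01, with overlap between the groups in both. Over all probe sets, arrays correlated at r = 0.9973 to 0.9978 within the wildtype group, at 0.9969 to 0.9974 within the mutant group and at 0.9967 to 0.9977 between the groups. Between 3568 and 4295 probe sets held the same value on any pair of these arrays. The FOXL2 probe set read 2.62, 2.52 and 2.67 with wildtype and 2.62, 2.62 and 2.47 with mutant FOXL2. It reads the 3′ UTR, a stretch outside the cloned sequence, so it does not show how much FOXL2 either plasmid made. The study measured FOXL2 in both groups by RT-qPCR and Western blot, data that were not analysed here.

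Of the markers of granulosa cells, 11 of 12 were measured and 4 lay above background, namely NR5A2, WT1, GATA4 and HSD17B1. Background here is a log2 signal of 5.13, the 95th percentile over 143 probe sets that read olfactory receptors or keratin-associated proteins, families of smell and hair, and a gene counts as above it if the mean of either group is. FOXL2, FSHR, AMHR2, CYP19A1, INHA, NR5A1 and ESR2 lay below it, so the labelled cell type is only partly borne out by its defining markers. The mean log2 signal over the 11 granulosa markers was 5.56 to 5.59 on the wildtype and 5.55 to 5.58 on the mutant arrays. Of 11 measured theca and stromal markers, 6 lay above background, namely ACTA2, COL1A1, COL3A1, DCN, LUM and THY1. The others, CYP17A1, LHCGR, INSL3, PDGFRA and PDGFRB, lay below it. The mean over all 11 theca and stromal markers was 6.38 to 6.49 on the wildtype and 6.41 to 6.46 on the mutant arrays. Means of sets of different genes do not rank cell types. Above background were also 3 of 11 epithelial (KRT7, CLDN3 and MUC1), 2 of 7 endothelial and 1 of 6 leukocyte markers. No measured member of the longer lists of epithelial (13), leukocyte (10), endothelial (10) or theca and stromal (12) markers had p under 0.01. SMARCA4, an ATPase of the SWI/SNF chromatin remodeller that small cell carcinomas of the ovary typically lack as protein, read 6.62, 6.62 and 6.62 with wildtype and 6.47, 6.59 and 6.65 with mutant FOXL2. Its relative SMARCA2 lay below background, at 4.46 to 4.48 with wildtype and 4.38 to 4.48 with mutant FOXL2.

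No difference between mutant and wildtype FOXL2 passed the test over all probe sets. At an adjusted p under 0.05 from limma, 0 of 54613 probe sets were called (0%), and the smallest adjusted p was 0.859. At an unadjusted p under 0.05 there were 2749 (5.03%), and the threshold itself allows 5%. At an unadjusted p under 0.01, the threshold of the study, there were 424 (0.776%), of which 237 were higher and 187 lower with mutant FOXL2, where the threshold allows 1%. Over all probe sets, the number of small p-values was therefore close to, or under, what these thresholds let through with no difference at all. This holds with dim probe sets included. When the 21973 probe sets above background were fitted alone, 277 (1.26%) had p under 0.01, and again 0 had an adjusted p under 0.05. That filter takes the higher of the group means. Near the background level it favours probe sets that differ, so 1.26% cannot be set against the 1% that the threshold allows. Over all 54613 probe sets, requiring over 1.4-fold in addition to p under 0.01 left 16 (0.0293%), 5 higher and 11 lower. That count ran from 19 to 37 with a single array left out, at 29 without wildtype replicate 1, 30 without wildtype replicate 3, 37 without mutant replicate 1 and 27 without mutant replicate 3. The split between directions moved with the scaling, since 55.9% of the probe sets at p under 0.01 were higher with mutant FOXL2 in the deposited values, 50.9% after a second quantile normalisation and 42.8% with every array centred on its median. All genes named in the following paragraphs are therefore given as measured differences, and no gene named here passed the adjusted threshold.

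**Figure D1:**
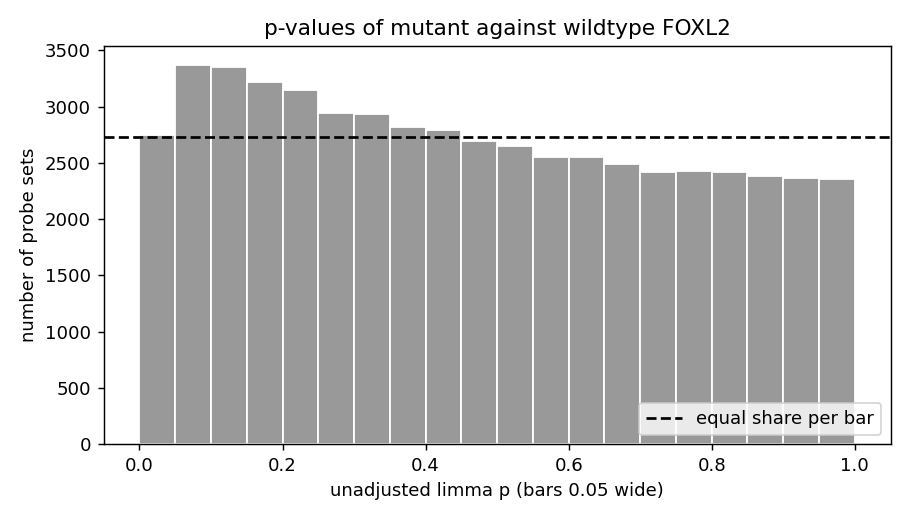
Unadjusted limma p-values of mutant against wildtype FOXL2 over 54613 probe sets, in bars 0.05 wide, with the number of probe sets on the y axis and a dashed line at an equal share per bar (2730.65). The lowest bar holds 2749 probe sets and sits at the line, while the bars from 0.05 to 0.45 lie above it and those from 0.45 upwards below it.

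Counted as genes at the probe set with the highest mean signal, 102 of 19775 were higher with mutant FOXL2 at p under 0.01 (0.516%) and 58 were lower (0.293%). Of the 102, 49 lay above background and 53 below it, whereas 46 of the 58 lay above it. The differences at p under 0.01 ran from −0.76 to 0.88 on the log2 scale over all probe sets. Among genes above background the median size of a difference was 0.06 and the median standard error 0.07, so a typical gene differed by less than its own error. In 1827 genes (9.24%) the 3 mutant arrays did not overlap the 3 wildtype arrays, 955 with mutant FOXL2 higher and 872 with it lower. With 3 arrays against 3, the exact two-sided permutation test of any gene has a floor of p = 0.1, and that is the value of every gene whose groups did not overlap.

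**Figure D2:**
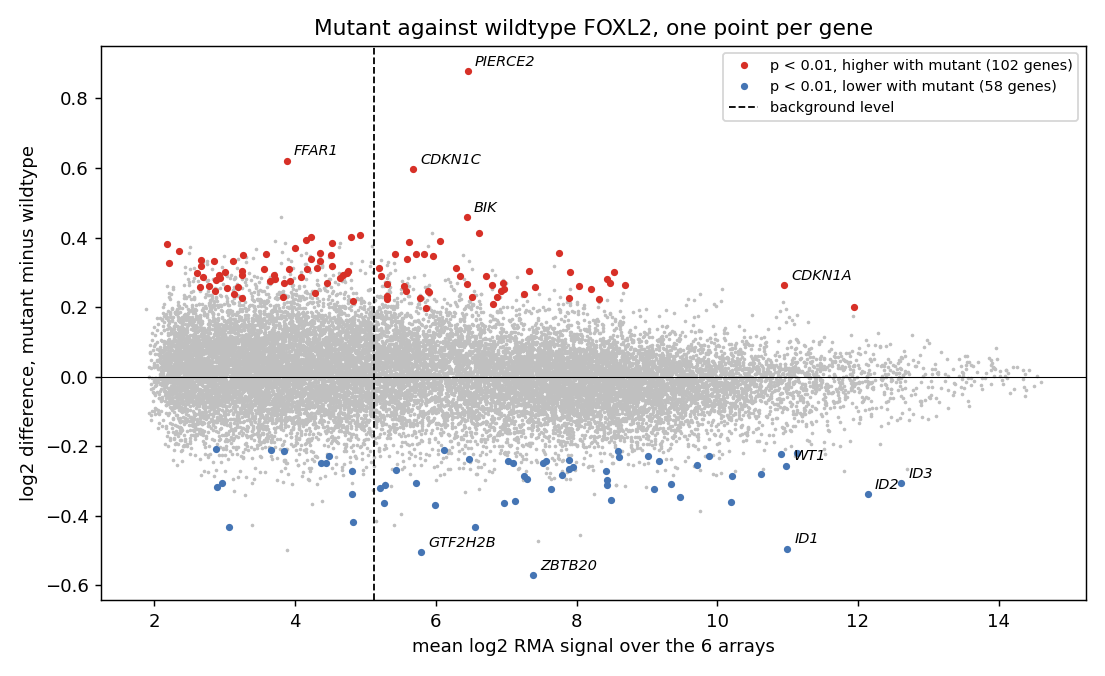
Log2 difference, mutant minus wildtype FOXL2, against the mean log2 signal over the 6 arrays for 19775 genes, 1 point each. Red points (102 genes higher with mutant) and blue points (58 lower) have an unadjusted limma p under 0.01, and the dashed line marks the background level of 5.13. PIERCE2 stands highest at 0.88 and ZBTB20 lowest of the blue points at −0.57, and the red points lie on both sides of the line.

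PIERCE2 had the largest difference at p under 0.01. It encodes a protein of the inner wall of cilia microtubules, and it read 5.79, 6.17 and 6.07 with wildtype and 6.93, 6.77 and 6.98 with mutant FOXL2. The groups were far apart, at a difference of 0.88 (standard error 0.11, 95% interval 0.63 to 1.13), a 1.84-fold higher signal, and its adjusted p from limma was the 0.859 given above. CDKN1C came next among genes above background. Its log2 signal was 5.52, 5.19 and 5.42 with wildtype and 5.84, 5.89 and 6.20 with mutant FOXL2, a difference of 0.60 (standard error 0.12, 95% interval 0.32 to 0.88) or 1.51-fold. All 5 of its probe sets were higher with mutant FOXL2, by 0.17 to 0.60, and 2 of them had p under 0.01. FFAR1, a receptor for free fatty acids, read 3.83, 3.38 and 3.51 against 4.19, 4.19 and 4.21. All of these signals lie below background, where differences are compressed and open to cross-hybridisation.

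With each gene read at its brightest probe set, ZBTB20 had the largest difference above background among the genes lower with mutant FOXL2. It encodes a zinc finger repressor, and it read 7.65, 7.77 and 7.59 with wildtype and 7.27, 6.94 and 7.08 with mutant FOXL2, a difference of −0.57 (standard error 0.10, 95% interval −0.79 to −0.35). Its 12 probe sets were all lower with mutant FOXL2, from −0.57 to −0.02, with 9 above background and 4 at p under 0.01. They read a shared transcript and are not independent of each other. GTF2H2B read 6.14, 5.94 and 6.04 against 5.52, 5.69 and 5.40, a difference of −0.51 (standard error 0.09). It is a near-identical copy of the gene for a subunit of transcription factor TFIIH, so the copies may share this signal and its source is uncertain. HYCC2, a cofactor of a lipid kinase complex, depended on the probe set. A weaker one read 5.84, 6.21 and 5.67 against 5.25, 5.15 and 5.31, a difference of −0.67 (standard error 0.13), while the brightest gave −0.28 (standard error 0.10, p above 0.01) with overlap between the groups. GNAS, the stimulatory G protein subunit, likewise differed by −0.49 (standard error 0.15) at a dim probe set and by −0.05 (standard error 0.07) at the brightest of its 12. For DEPDC4, whose product has a DEP domain, the weaker probe set gave −0.52 and the brighter one 0.06, both below background. The rest of the 16 probe sets past 1.4-fold were that of ID1, described next, a second one of ZBTB20, one of the non-coding gene BOLA3-DT below background, and 5 that had no gene name in the table used here. One of these 5 lay above background and read 7.01, 6.36 and 6.71 against 6.18, 5.89 and 5.96.

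In the BMP branch, ID1, ID2 and ID3 were all lower with mutant FOXL2 at an unadjusted p under 0.01. ID1 read 11.35, 11.20 and 11.18 with wildtype and 10.67, 11.01 and 10.57 with mutant FOXL2. The groups did not overlap, though mutant replicate 2 lay close to the wildtype arrays, and the difference was −0.50 (standard error 0.12, 95% interval −0.77 to −0.22), a 1.41-fold lower signal. ID2 read 12.33, 12.42 and 12.18 against 11.91, 12.13 and 11.87, a difference of −0.34 (standard error 0.09), and its second probe set gave −0.24. ID3 read 12.77, 12.75 and 12.78 against 12.36, 12.58 and 12.44, a difference of −0.31 (standard error 0.07). In all 3 genes mutant replicate 2 was the highest of the mutant arrays. Without that array the differences were −0.63 for ID1, −0.42 for ID2 and −0.37 for ID3. Leaving out any other array in turn took the unadjusted p of ID1 above 0.01 each time. The sign could not change, since the groups did not overlap in any of these 3 genes. For ID2, p rose above 0.01 without wildtype replicate 1 or 2 or mutant replicate 1 or 3, and for ID3 without wildtype replicate 1 or 3 or mutant replicate 1 or 3. The differences without a single array ran from −0.63 to −0.40 for ID1, from −0.42 to −0.29 for ID2 and from −0.37 to −0.26 for ID3. The fit of all 9 COV434 arrays has the same ID1 difference with a standard error of 0.47. Leaving empty vector replicate 1 out of that fit gives 0.12, so the larger error comes with that array.

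Because these 3 genes differed in the same direction, the sequence at their transcription starts is shown, from 250 bases before to 50 after the start, as RefSeq gives it in GRCh38.p14. Capitals mark the CCAAT box (CCAAT, or ATTGG on the opposite strand), a common promoter element bound by NF-Y.
ID1, chr20:31605039-31605338, plus strand: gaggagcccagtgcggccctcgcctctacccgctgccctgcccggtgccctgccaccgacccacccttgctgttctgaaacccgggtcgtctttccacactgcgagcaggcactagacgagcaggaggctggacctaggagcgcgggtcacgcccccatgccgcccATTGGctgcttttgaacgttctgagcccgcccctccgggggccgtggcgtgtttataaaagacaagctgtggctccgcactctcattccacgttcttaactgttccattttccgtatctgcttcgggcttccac
ID2, chr2:8681806-8682105, plus strand: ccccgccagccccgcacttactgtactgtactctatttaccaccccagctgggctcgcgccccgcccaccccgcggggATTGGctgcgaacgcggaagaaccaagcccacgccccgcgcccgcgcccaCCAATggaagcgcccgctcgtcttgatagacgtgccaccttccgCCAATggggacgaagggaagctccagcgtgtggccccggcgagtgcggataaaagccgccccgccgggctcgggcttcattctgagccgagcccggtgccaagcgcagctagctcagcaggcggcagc
ID3, chr1:23559452-23559751, minus strand: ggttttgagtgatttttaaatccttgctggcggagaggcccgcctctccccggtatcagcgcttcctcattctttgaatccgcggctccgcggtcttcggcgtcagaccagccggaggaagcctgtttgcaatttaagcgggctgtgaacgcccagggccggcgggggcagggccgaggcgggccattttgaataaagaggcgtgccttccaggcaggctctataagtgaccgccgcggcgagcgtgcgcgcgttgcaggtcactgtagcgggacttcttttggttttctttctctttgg
The window of ID1 holds 1 CCAAT box, that of ID2 holds 3 and that of ID3 none, where 34.6% of 35116 promoter windows of this length hold at least 1. The forkhead core GTAAACA, searched on both strands, is in none of the 3, and it is in 3.42% of all windows. The GC-rich SMAD element GGCGCC, which reads alike on both strands, is also in none of them, against 19.2% of all windows. No match means only that these letters are not in these windows.

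Over the list of BMP target genes, 16 of 17 were measured, 3 were lower (ID1, ID2 and ID3) and 1 was higher (DLX3) at p under 0.01, and 12 did not pass. Over all genes 0.293% were lower and 0.516% higher at that threshold. The difference was negative in 12 of the 16, against 47.6% of all genes, with a median of −0.10 against 0.01, and in 6 the groups did not overlap, against 9.24% of all genes. The mean log2 signal over the list was 7.83, 7.85 and 7.85 on the wildtype arrays and 7.72, 7.71 and 7.73 on the mutant arrays. Mutant arrays were thus the lower ones throughout, on a mean that the ID genes weigh upon. Left out one at a time, wildtype replicate 1 and mutant replicate 1 each brought the count of lower members to 0. It was 1 without wildtype replicate 2 (ID3), without wildtype replicate 3 (ID2) and without mutant replicate 3, where none of the ID genes was kept and SMAD9 came in. DLX3 was not under p 0.01 in any of these 6 fits. SMAD6, an inhibitor of BMP signalling that the pathway itself induces, read 7.22, 7.29 and 7.41 against 7.10, 6.88 and 7.13, a difference of −0.27 (standard error 0.09) at p above 0.01. SMAD9, a signal carrier that BMP also induces, differed by −0.34 (standard error 0.13), also at p above 0.01. DLX3, a homeobox gene, differed by 0.29 (standard error 0.08) below background.

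Target genes of TGF-β and activin were mostly on the positive side. Of 17 listed, 15 were measured, 2 were higher (PMEPA1 and LEFTY1) and 0 lower at p under 0.01, and 13 did not pass. Over all genes 0.516% were higher at that threshold. The difference was positive in 11 of 15, against 52.4% of all genes, with a median of 0.08. Without wildtype replicate 3, mutant replicate 1 or mutant replicate 3, PMEPA1 was the 1 higher member left. PMEPA1, which dampens TGF-β signalling in a feedback loop, read 5.94, 5.86 and 5.79 with wildtype and 6.21, 6.21 and 6.35 with mutant FOXL2, a difference of 0.39 (standard error 0.07). Its 3 probe sets were all higher, by 0.18 to 0.39, and only the brightest lay above background. LEFTY1, a secreted inhibitor of nodal, differed by 0.33 (standard error 0.09) below background. GADD45B, a stress and TGF-β response gene, read 5.51, 5.82 and 5.74 against 5.96, 6.01 and 5.97, a difference of 0.29 (standard error 0.09) with p just above 0.01, and a second probe set gave 0.30 with p under 0.01. The BMP and TGF-β lists were not tested against each other.

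Further up the pathway, 1 of 25 measured ligands, 1 of 13 receptors and 1 of 17 SMAD carriers and regulators had p under 0.01. At that threshold 0.516% of all genes were higher and 0.293% lower with mutant FOXL2. The ligand was INHBA, the activin βA subunit, which read 5.43, 5.43 and 5.21 against 4.93, 5.05 and 5.14, a difference of −0.32 (standard error 0.09) at the background level, and a second probe set there gave −0.15 (standard error 0.10). BMPR1B, a type I BMP receptor, read 11.26, 11.28 and 11.21 against 11.01, 11.03 and 11.04. Its difference of −0.22 (standard error 0.06) was small but wider than the range of either group. The type II receptors TGFBR2 and BMPR2 had differences of −0.23 (standard error 0.08) and −0.21 (standard error 0.09), both at p above 0.01. ACVR1C, another receptor of the list, differed by 0.30 below background, also at p above 0.01. The receptors did not lean to a side, with 7 differences positive, 6 negative and a median of 0.02. SMAD3 read 5.77, 5.57 and 5.61 with wildtype and 5.94, 6.03 and 6.03 with mutant FOXL2, a difference of 0.35 (standard error 0.07). This was its brightest probe set, and the other 3 gave −0.02, 0.03 and −0.18, so the direction for SMAD3 rests on that probe set. SMURF2, a ubiquitin ligase of SMADs, differed by 0.25 (standard error 0.09), again at p above 0.01.

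**Figure D3:**
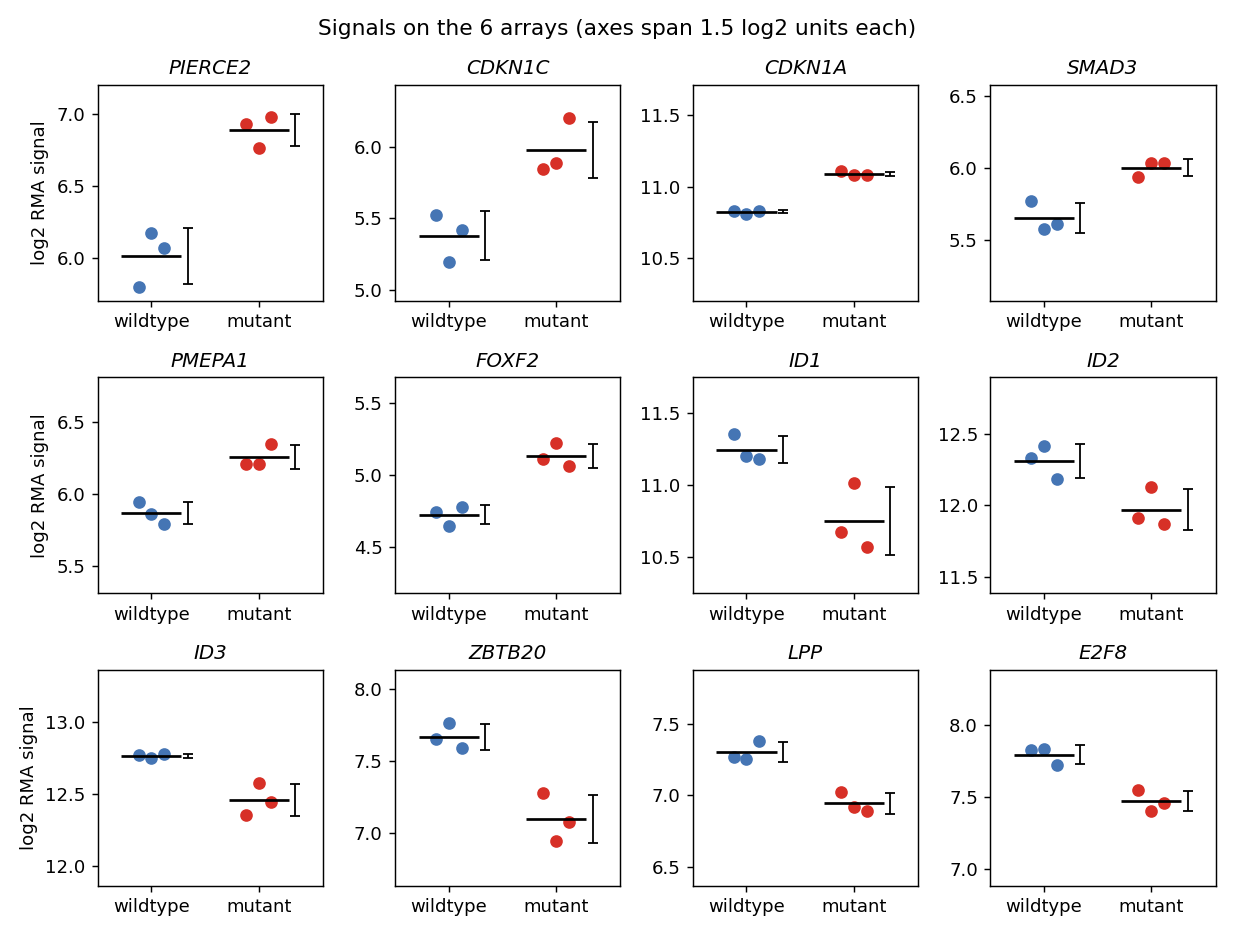
Log2 RMA signal (y axis) of 12 genes on the 3 wildtype (blue) and 3 mutant (red) FOXL2 arrays. Lines are means, error bars 1 SD (n = 3 arrays), and each y axis spans 1.5 log2 units. The groups do not overlap in any panel, and the distance between means runs from 0.26 (CDKN1A) to 0.88 (PIERCE2).

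Among the genes that hold back the cell cycle, a pair of CDK inhibitors was higher with mutant FOXL2. Of 20 measured CDK inhibitors and G1 regulators, 2 were higher and 0 lower at p under 0.01, namely CDKN1C, described earlier, and CDKN1A. The shares over all genes were 0.516% higher and 0.293% lower. CDKN1A read 10.83, 10.81 and 10.83 with wildtype and 11.11, 11.08 and 11.08 with mutant FOXL2. Its difference of 0.26 (standard error 0.06) is a 1.20-fold higher signal. The arrays of each group lay close together, and p stayed under 0.01 with any single array left out. CDKN2A, which encodes p16 and ARF, differed by −0.03 (standard error 0.06). CDK6, a G1 kinase, differed by 0.01 at its brightest probe set and by −0.45 (standard error 0.11) at a dimmer one. The list as a whole did not lean the same way, since 13 of the 20 differences were negative, with a median of −0.04.

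Genes of the S, G2 and M phases lay slightly lower with mutant FOXL2. All 30 listed were measured and above background, 0 were higher and 2 lower at p under 0.01, and 28 did not pass. That threshold was met by 0.516% of all genes on the higher side and 0.293% on the lower side. The difference was negative in 29 of 30, the exception being CDC20 at 0.02, and the median was −0.09. In 14 of the 30 (46.7%) the groups did not overlap, all with mutant FOXL2 lower, where 9.24% of all genes did not overlap. Among genes with a signal over 7 that share was 11.9 to 15.2%, depending on the band of signal. The listed genes have signals of 7.63 to 12.4. The mean over the list was 10.18, 10.16 and 10.17 on the wildtype and 10.07, 10.06 and 10.09 on the mutant arrays. Cycle genes vary together with the share of dividing cells in a culture, so the 30 genes are not 30 observations, and fewer dividing cells and less RNA per cell cannot be told apart in bulk samples. Negative differences were also more common among bright genes at large, with 61.3% of those with a signal of 9 to 10 and 59.1% of those over 10. After a second quantile normalisation 26 of the 30 were negative, with a median of −0.07. E2F8, a late repressor of E2F targets, read 7.83, 7.84 and 7.72 against 7.55, 7.41 and 7.46, a difference of −0.32 (standard error 0.07). KIF11, the motor of the bipolar spindle, read 9.14, 9.15 and 9.10 against 8.92, 8.97 and 8.81, a difference of −0.23 (standard error 0.07). With a single array left out, E2F8 kept p under 0.01 each time and KIF11 only without mutant replicate 2.

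Of 22 measured p53 targets, 3 were higher and 0 lower at p under 0.01, and 19 did not pass. They were CDKN1A, TP53I11 and PLK3, and over all genes 0.516% were higher and 0.293% lower at that threshold. TP53I11 read 5.59, 5.47 and 5.22 against 5.82, 5.77 and 5.84, a difference of 0.39 (standard error 0.10), while the lowest of its 3 probe sets gave −0.0026. PLK3, a stress-responsive polo kinase, differed by 0.22 (standard error 0.06) at its brightest probe set and by as little as −0.16 at a dimmer one. The median of the list was 0.05, and with any single mutant replicate left out CDKN1A was the 1 higher member left. Of 30 measured apoptosis regulators, 1 was higher, 0 were lower, and 15 were on each side of 0. The higher one was BIK, a BH3-only promoter of cell death, at 6.35, 6.22 and 6.05 against 6.59, 6.85 and 6.56, a difference of 0.46 (standard error 0.11). Leaving out arrays one at a time kept BIK at p under 0.01 in 3 of 6 fits.

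**Figure D4:**
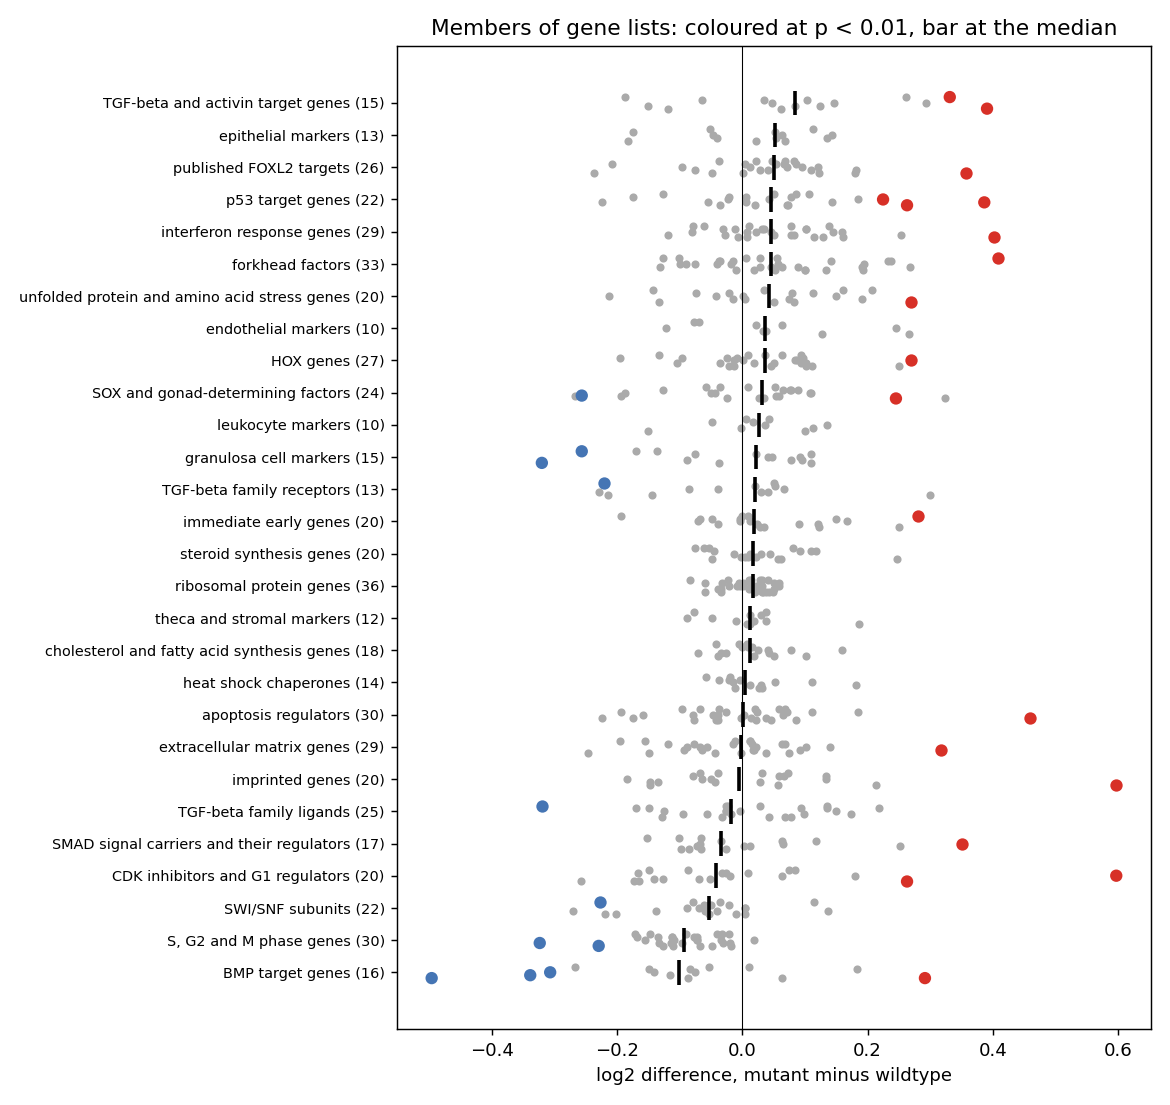
Log2 difference, mutant minus wildtype FOXL2 (x axis), of every measured member of 28 gene lists, 1 point per gene, with the number of measured members in brackets and a black bar at the median. Red and blue points have an unadjusted limma p under 0.01. Medians run from −0.10 (BMP targets) to 0.08 (TGF-β and activin targets), and the spread around 0 is wider than the distance between most medians.

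Genes of the gonad and targets of FOXL2 held few differences. Of 15 measured granulosa cell genes, 0 were higher and 2 lower at p under 0.01, INHBA and WT1. For this and the other lists below, the shares over all genes were 0.516% higher and 0.293% lower. WT1, a zinc finger factor of the developing gonad, read 11.17, 11.07 and 11.08 against 10.91, 10.77 and 10.88, a difference of −0.26 (standard error 0.07). Among 24 SOX and gonad-determining factors, WT1 was lower and SOX8, a relative of SOX9, was higher, at 6.77, 6.73 and 6.89 against 6.96, 7.12 and 7.05. SOX9 itself, a driver of testis fate, lay below background with a difference of 0.05 (standard error 0.11). None of 20 measured genes of steroid synthesis had p under 0.01. STAR, which brings cholesterol into mitochondria, read 4.16, 4.07 and 4.31 against 4.07, 4.17 and 4.17, with an interval of the difference from −0.23 to 0.13 (95%). CYP19A1, the aromatase, read 4.34, 4.34 and 4.10 against 4.57, 4.20 and 4.34, with an interval from −0.15 to 0.37. Both lie below background, so these intervals belong to signals that the arrays did not resolve from unexpressed genes. Of 26 measured genes from published lists of FOXL2 targets, 1 was higher, 0 were lower and 20 were on the positive side, with a median of 0.05. Among all genes 52.4% were on the positive side. The higher one was MAFF, a small MAF factor of the stress response, at 7.61, 7.52 and 7.60 against 7.83, 7.85 and 8.12, a difference of 0.36 (standard error 0.09). Its other probe set, also above background, gave 0.10 (standard error 0.06). Among 33 forkhead genes FOXF2 was higher, at 4.74, 4.65 and 4.78 against 5.11, 5.22 and 5.06, a difference of 0.41 (standard error 0.07). Its wildtype mean of 4.72 lay below background, and its mutant mean of 5.13 only reached that level.

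Stress and signalling genes gave single members only, where 0.516% of all genes were higher and 0.293% lower at p under 0.01. JUN, an AP-1 subunit, was the 1 of 20 measured immediate early genes at p under 0.01, with 8.30, 8.28 and 8.31 against 8.53, 8.55 and 8.66, a difference of 0.28 (standard error 0.06). A second of its 4 probe sets gave 0.24, also at p under 0.01, and all 4 were positive. TRIB3, a pseudokinase of the amino acid stress response, was the 1 of 20 on its list, at 6.78, 6.86 and 6.82 against 7.04, 7.08 and 7.15. Of the interferon response genes 1 of 29 was higher, ISG20 at 0.40, and of the extracellular matrix genes 1 of 29, MGP at 0.32, both below background. Of 27 measured HOX genes 1 was higher, HOXC6 at 0.27 (standard error 0.08). Of 22 SWI/SNF subunits 1 was lower, ARID1A at −0.23 (standard error 0.07) and at −0.12 to −0.04 by its other 3 probe sets. In 17 of the 22 the difference was negative, against 47.6% of all genes. Among genes with a signal over 7 that share was 52.9 to 61.3%, depending on the band of signal. CDKN1C was the 1 of 20 imprinted genes. In the lists of heat shock chaperones (14), cholesterol and fatty acid synthesis (18) and ribosomal proteins (36), 0 members had p under 0.01.

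The remaining genes picked by size of difference belong to no list. On the higher side, the neurotrophin receptor gene NGFR differed by 0.35 (standard error 0.09), the pseudokinase gene PRAG1 by 0.35 (standard error 0.09) and FLT4, the receptor of lymphatic endothelium, by 0.35 (standard error 0.09). A second probe set of FLT4 above background gave 0.05 (standard error 0.06). The ribosomal RNA precursor RNA45SN5 differed by 0.41 (standard error 0.11) and by 0.17 (standard error 0.09) at its 2 probe sets, and as a multicopy gene it is uncertain. On the lower side, LPP, an adaptor of focal adhesions, read 7.27, 7.26 and 7.38 against 7.03, 6.92 and 6.89, a difference of −0.36 (standard error 0.07) at the brightest of 8 probe sets, of which 4 were negative. Both REL, an NF-κB subunit, and NFKBIA, the inhibitor of NF-κB, were lower, by −0.37 (standard error 0.08) and −0.35 (standard error 0.09), and a dim second probe set of NFKBIA gave 0.02. SYNE2, which links the nucleus to the cytoskeleton, differed by −0.36 (standard error 0.09), and its 4 dimmer probe sets, all below background, gave −0.31 to 0.21. MTM1, a lipid phosphatase, differed by −0.35 (standard error 0.09) at its brightest probe set and by −0.12 (standard error 0.09) at the other, also above background. THSD7A, a membrane protein with thrombospondin repeats, differed by −0.43 (standard error 0.12), with all 4 probe sets negative. ZDBF2 and the cadherin gene FAT3 each differed by −0.36, with standard errors of 0.09 and 0.11. The wildtype mean of FAT3, 5.45, lay above background, and its mutant mean of 5.09 lay below it. The other probe sets of FAT3, below background, gave 0.01 and 0.04.

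**Figure D5:**
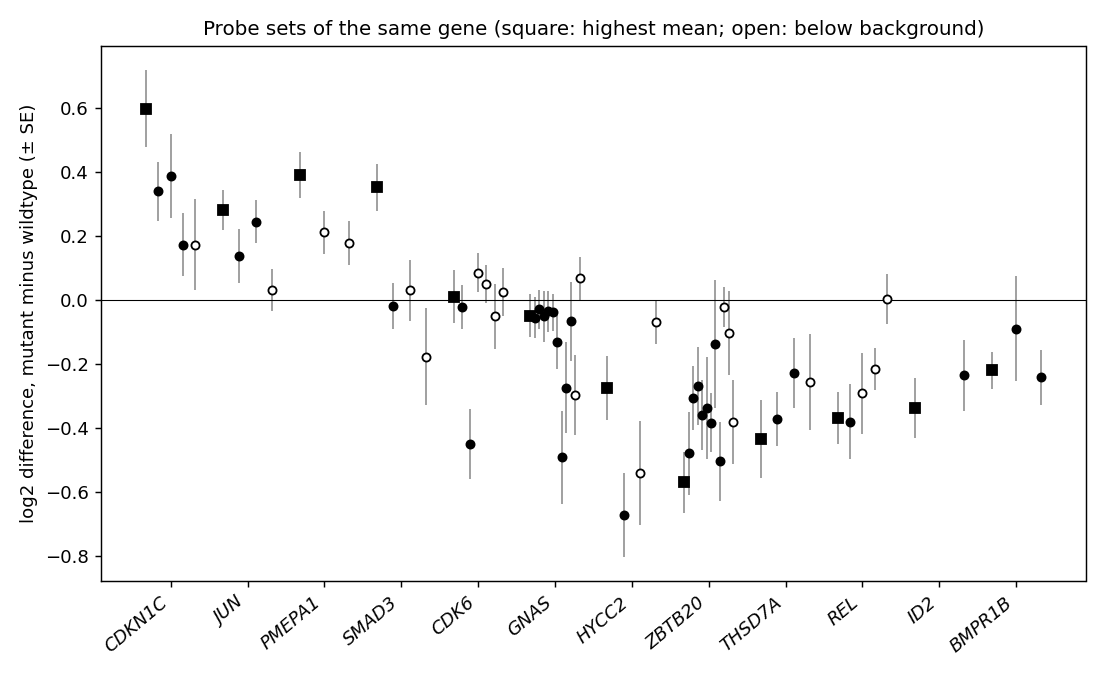
Log2 difference, mutant minus wildtype FOXL2, with its standard error, at every probe set of 12 genes. Squares mark the probe set with the highest mean, open symbols those below background. CDKN1C, JUN, PMEPA1, HYCC2, ZBTB20, THSD7A, ID2 and BMPR1B lie on a single side of 0 at all their probe sets, while those of SMAD3, CDK6, GNAS and REL lie on both.

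The genes that the study picked for this comparison were chosen on these same arrays, so their counts are not independent evidence. Of the genes of its heat map 8 of 9 were measured, and 3 were higher (PIERCE2, FFAR1 and CDKN1C) and 2 lower (ID1 and GTF2H2B) at p under 0.01. Of the genes in its text 12 could be matched to a symbol, with BMPRB1 read as BMPR1B and BTG left out because it fits several genes. All 12 were measured, and 5 were higher (SMAD3, CDKN1A, CDKN1C, JUN and DLX3) and 2 lower (INHBA and BMPR1B). INHA, the inhibin α subunit and another of the 12, differed by −0.17 (standard error 0.09) below background. Of the 42 genes named here with p under 0.01, between 18 and 25 kept it when a single array was left out. None changed sign under any setting. In none of the 42 did the groups overlap, so leaving out an array could not have reversed the sign. PIERCE2, CDKN1C, FOXF2, PMEPA1, ZBTB20, GTF2H2B, LPP and JUN kept it under all 14 alternatives that give a p. FFAR1 kept it under all 13 it could enter, and SMAD3 and CDKN1A each under 13 of 14. Averaging a gene over all its probe sets gives no p and is not among these alternatives. That mean difference was −0.07 for LPP and 0.05 for SMAD3, both far smaller than at the brightest probe set. It was 0.33 for CDKN1C, 0.26 for PMEPA1, 0.17 for JUN and −0.32 for ZBTB20. With a single array left out, 13 of the 42 kept it in all 6 fits. REL and TRIB3 kept it in 5 of 6, SYNE2 in 4, and BIK and MAFF in 3. Another 11 kept it in 2 of 6, namely ID2, ID3, INHBA, BMPR1B, WT1, SOX8, FLT4, NFKBIA, RNA45SN5, TP53I11 and ZDBF2. A further 12 kept it in 1 of 6. They were ID1, KIF11, PLK3, ARID1A, HOXC6, FAT3, LEFTY1, MGP, MTM1, NGFR, PRAG1 and THSD7A. DLX3 kept it in 0. The fit of all 9 COV434 arrays kept 11 of the 42.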

How the data were processed

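The members of the comparison and all gene lists were chosen with earlier results of these data known. The authors checked the scans with AffyQCReport and made the deposited log2 signals by RMA with background correction in R. The versions are not given in the sources used here, and the deposited table holds no detection calls. Total RNA (105 ng per sample) had been amplified before hybridisation.

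All steps used R 4.3.3 and limma 3.58.1. Of 54675 probe sets, the 62 controls were left out. Of the rest, 41091 had 1 gene symbol, 1801 several and 11721 none, and 54 of the first had an identifier that the reference does not hold. Each gene was read at its brightest probe set, that with the highest mean of the 6 arrays. Groups were compared with lmFit and eBayes, two-sided, with Benjamini-Hochberg adjustment over 54613 probe sets. Replicates are numbered in accession order. Wildtype replicates 1, 2 and 3 have the codes RR1018, RR1020 and RR1022, and mutant replicates RR1017, RR1019 and RR1024, the second of which has a transfection label that names only the mutant. The fit was tested on simulated data.

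Named genes were the 12 largest differences in each direction at p under 0.01, without overlap and above background, every list member at p under 0.01 (up to 6 a list), the genes the study names, and FOXL2, STAR, CYP19A1, SOX9, SMARCA4 and SMARCA2. BOLA3-DT, an unnamed probe set and the list members given at larger p were named after their values were seen. Arrays have no depth, and their number (3 a group) limits the precision. Alternatives were other arrays in the fit, an intensity trend, array weights, a background filter, other scalings, a block, arrays left out and other rules for probe sets.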

Additional observations from a re-analysis of the deposited data

How the results depend on the processing

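No probe set had an adjusted p under 0.05 in any alternative run. The count at p under 0.01, 424 in the comparison as reported, was 60 (35 higher and 25 lower with mutant FOXL2) in the fit of all 9 COV434 arrays and 209 (119 higher and 90 lower) when empty vector replicate 1 was left out of that fit, an alternative chosen after seeing the data. It was 277 of 21973 (1.26%) with dim probe sets removed (115 higher), and 9 of these were over 1.4-fold against 16. With a single array left out it ran from 329 to 569, from 165 to 321 for higher and from 161 to 248 for lower ones, and from 19 to 37 past 1.4-fold. Counting a gene by any of its probe sets gave 309 genes in place of 160. The labels do not explain the array codes. Sets of consecutive codes did not deviate together over all probe sets (r = −0.03 to −0.02), a measure that cannot show a shift shared by few of them. With these sets as a replicate block, 399 probe sets had p under 0.01 (177 higher and 222 lower) and 31 of the 42 named genes kept it. The intensity trend kept 41 of the 42, array weights 40, centring on the median 39 and a second quantile normalisation 38. The cause of these shifts was not tested. The arrays resolve little below the background level, where 53 of the 102 higher and 12 of the 58 lower genes lie.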
